A study of Homo sapiens with 18 samples.

Results

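The nuclear genes for the proteins of the mitochondrial ribosome were followed in the cell line OCI-AML1, which comes from a human acute myeloid leukaemia. They were chosen by name, as the protein-coding genes whose symbol is MRPL or MRPS plus a number, with pseudogenes and antisense transcripts left out. This gave 78 genes of the 60609 gene identifiers in the files, and 77 of them passed the filter on low counts. Of the 78, 51 encode proteins of the large subunit and 26 proteins of the small subunit. The 78th, MRPS36, is not seen in structures of the ribosome and encodes a subunit of the 2-oxoglutarate dehydrogenase complex. Polyadenylated RNA was sequenced from cells kept with AML874, with SEL120-34A or with the solvent DMSO for 24 h or 8 h. AML874 is known here by its code name, and the Mediator kinases CDK8 and CDK19 are the targets of SEL120-34A. Each of the 6 groups had 3 libraries, 18 in all, from a single cell line labelled as wild type. The labels state no doses. The title of the series concerns inhibition of the Mediator kinases and sensitivity to venetoclax, a BCL2 inhibitor.

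The mitochondrial ribosome translates the mRNAs of the mitochondrial genome, which encode subunits of the respiratory chain and of ATP synthase. Its RNA comes from mitochondrial DNA, whereas all of its proteins are encoded in the nucleus, made in the cytosol and imported, and their genes are spread over 21 chromosomes. Many of the proteins have a bacterial homologue and the others are found in mitochondria only. Acute myeloid leukaemia cells are known for their sensitivity to drugs that block mitochondrial translation.

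Each library had between 98975944 and 142496541 counts in genes. Levels are given as CPM, counts scaled by library size, or, between genes, as TPM, which are also scaled by length. Changes are log2 fold changes ± standard error. A gene was called at an adjusted p under 0.05 by the quasi-likelihood test of edgeR with Benjamini-Hochberg adjustment over 20920 genes. The labels do not say that the 3 libraries of a group were separate cultures, so p-values measure the spread between libraries, which may be technical. The myeloid markers CD33, CSF3R, SPI1, CEBPA, LYZ and PTPRC lay between 37.5 and 337.8 TPM in all libraries, MPO lay between 1.93 and 16.7 TPM, and ANPEP reached at most 0.21 TPM. Markers of T, B, erythroid, epithelial and fibroblast cells were at or near 0, with CD79A highest at 1.5 TPM. In bulk RNA, fewer cells and less RNA per cell cannot be told apart.

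All 78 genes had reads by at least 1 of the deposited count types, and their levels per length spanned a wide range. MRPL4 was highest, with a mean of 282 TPM over the 18 libraries (228 to 355), followed by MRPL33 at 262 TPM, MRPL41 at 226 TPM, MRPS34 at 209 TPM and MRPL12 at 195 TPM. MRPL50 was lowest, with a mean of 14.8 TPM (12.4 to 17.2). Above it came MRPS17 at 23.3 TPM, MRPS31 at 23.6 TPM, MRPL30 at 32.05 TPM and MRPL10 at 32.9 TPM. The proteins stand in equal number in a ribosome apart from MRPL12, which is present in several copies.

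More of the genes differed with time than with either compound. In DMSO cultures 59 of the 77 tested genes were lower at 24 h than at 8 h and 1 was higher, where 22.7% of all genes were lower and 19.8% higher. The median log2 fold change of the 77 was -0.20, against 0.01 for all genes tested. Every library at 24 h lay below every library at 8 h for 61 of the 77, where this held for 26.3% of all genes. The summed level of the 77 genes was 4212, 4220 and 4133 CPM at 24 h, against 4860, 4884 and 4659.9 CPM at 8 h. With library totals as the only scaling, 54 were lower and 3 higher, and the shares of all genes under that scaling are not given.

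**Figure D1:**
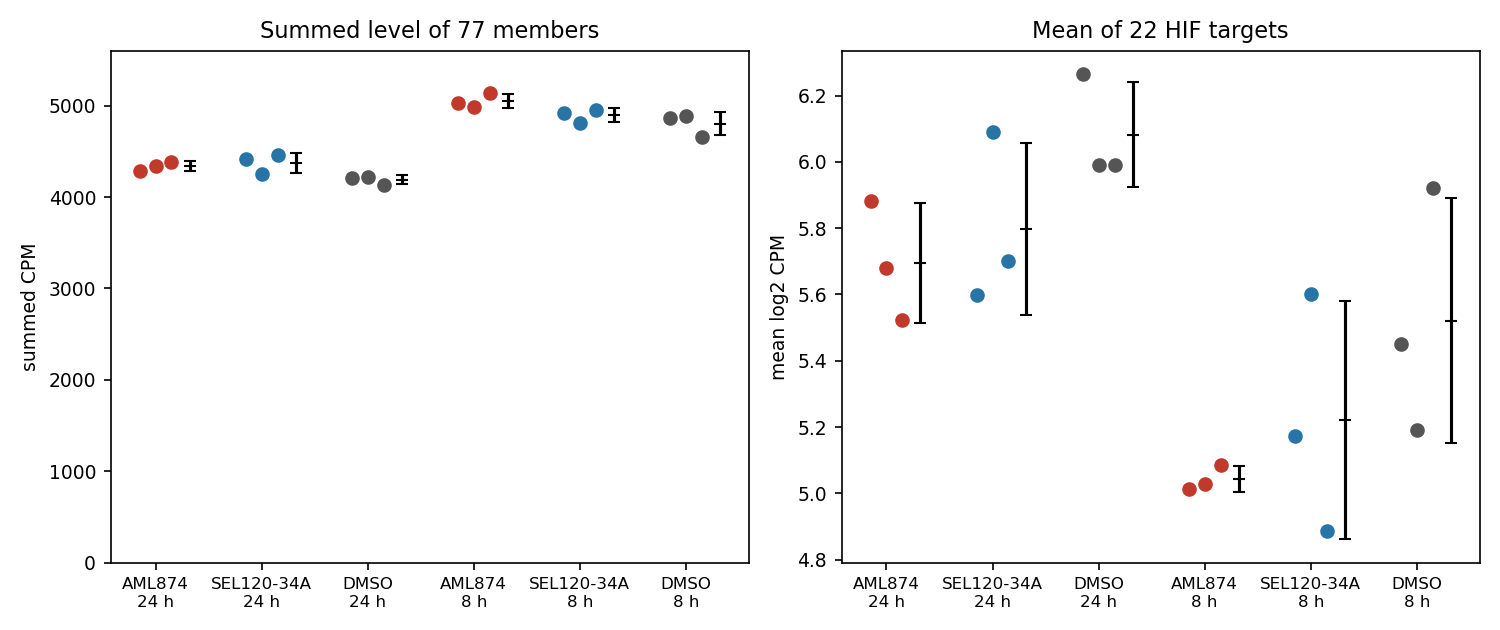
The left panel gives the summed level (CPM) of the 77 tested genes in each library, one point per library, with mean and SD (n = 3) beside the points. The right panel gives the mean log2 CPM of 22 HIF target genes in the same libraries. The sums lie between 4133 and 4456 CPM in all 9 libraries at 24 h and between 4659.9 and 5136 CPM in all 9 at 8 h.

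The falls in DMSO cultures were small in size and spread over both subunits. MRPL36, a large subunit protein with a bacterial homologue, had 30.2, 29.1 and 29.5 CPM at 24 h, against 39.9, 40.2 and 38.7 CPM at 8 h. It had the largest fall, with a log2 change of -0.42 ± 0.04 (edgeR adjusted p = 1.19e-11), or 0.748 times the level at 8 h, with no overlap between the libraries. MRPL55, which also has a bacterial homologue, had 23.2, 23.4 and 23.2 CPM at 24 h, against 30.8, 32.1 and 29.9 CPM at 8 h. Its libraries did not overlap either, and its change was -0.41 ± 0.04 (edgeR adjusted p = 8.04e-11). MRPS34, a mitochondrion-specific protein of the small subunit, had 107, 110.4 and 105 CPM at 24 h, against 144, 141.9 and 133 CPM at 8 h. All 3 of its libraries at 24 h were lower, and the change was -0.37 ± 0.03 (edgeR adjusted p = 6.22e-12). The next falls were those of MRPS12, a protein of the decoding site (-0.37), MRPL12, which in human cells also binds the mitochondrial RNA polymerase (-0.37), and MRPL27, whose bacterial homologue lies near the peptidyl transferase centre (-0.36).

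MRPS27 was the 1 gene of the set called higher with time in DMSO cultures. With a filter of 1 CPM in 3 libraries or with the HIF target mean as a covariate 2 genes were higher, and the shares of all genes there are not given. MRPS27 encodes a mitochondrion-specific protein of the small subunit with pentatricopeptide repeats, a fold that binds RNA. It had 152, 149.7 and 148 CPM in DMSO cultures at 24 h, against 137, 140.3 and 139 CPM at 8 h. The groups did not overlap, and the change was 0.11 ± 0.02 (edgeR adjusted p = 0.000329). Its changes with time were also positive and called in the AML874 cultures (0.12) and the SEL120-34A cultures (0.27). The 17 genes that did not pass in DMSO cultures lay between -0.24 for MRPL46 and 0.04 for MRPL44.

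**Figure D2:**
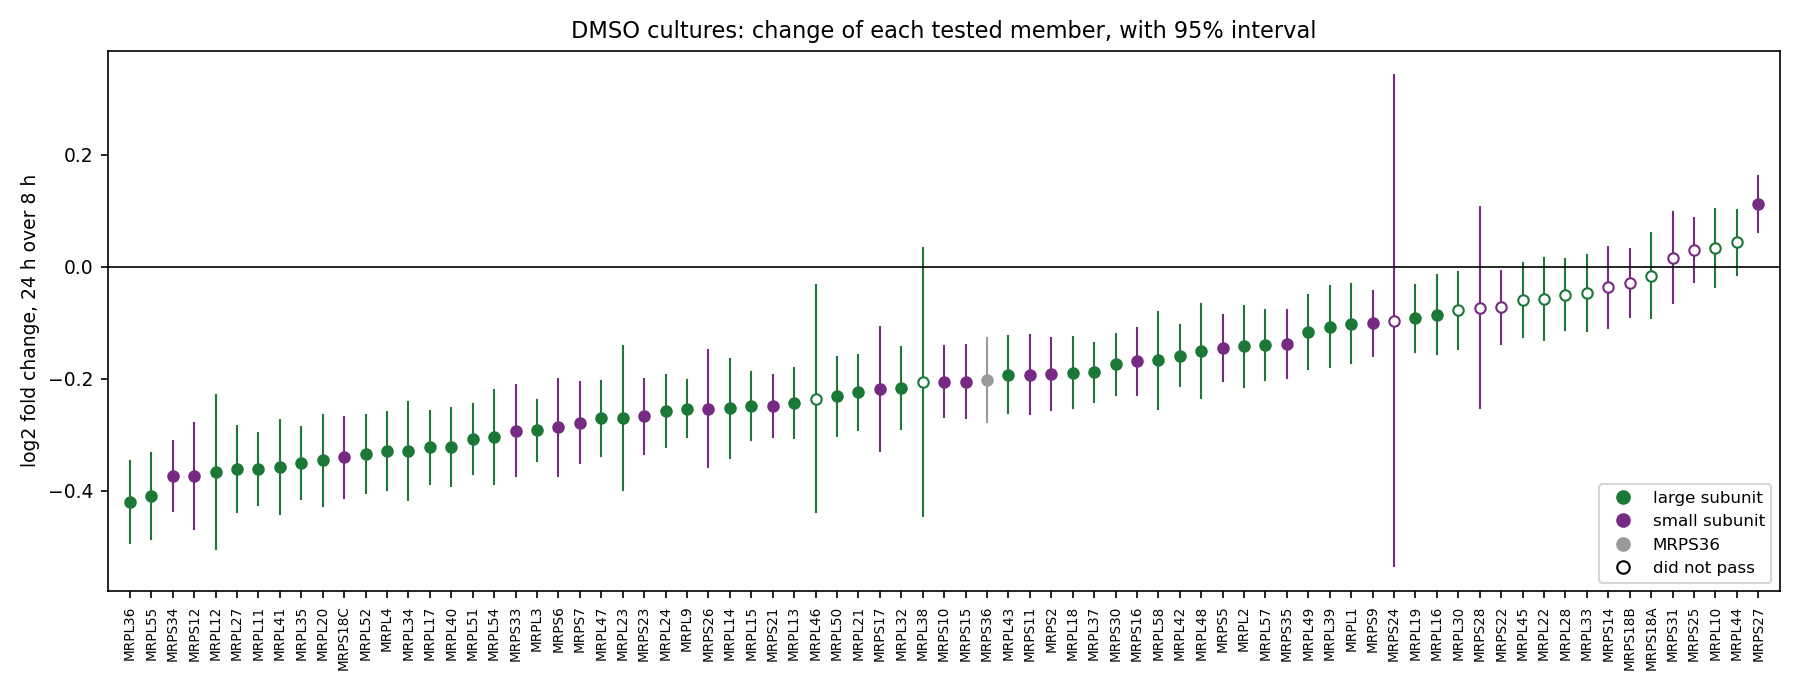
Each point is the log2 fold change of 1 gene in DMSO cultures, 24 h over 8 h, with its 95% interval, in order of size and coloured by subunit. Filled points passed the test. Of the 77 points, 72 lie below 0, from -0.42 for MRPL36, and MRPS27 at 0.11 is the filled point above 0.

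Genes with a bacterial homologue were lower in 25 of 30 cases in the large subunit and in 13 of 16 in the small subunit, with medians of -0.25 and -0.20. Mitochondrion-specific genes were lower in 15 of 20 cases in the large subunit, with a median of -0.18, and in 5 of 10 in the small subunit, with a median of -0.10. MRPS27 was among those 10, and so were MRPS31 and MRPS25, which lay at 0.02 and 0.03 and did not pass. MRPS36 fell as well, with a change of -0.20 ± 0.04 (edgeR adjusted p = 2.79e-05).

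Most genes were also lower at 24 h in cultures with either compound, in comparisons added after the data had been seen. With AML874, 64 of the 77 genes were lower at 24 h than at 8 h and 3 were higher, where 27.0% of all genes were lower and 25.3% higher, and the median was -0.22. With SEL120-34A, 57 were lower and 4 higher, where 26.2% of all genes were lower and 24.5% higher, and the median was -0.19. These comparisons share no library with that of the DMSO cultures. MRPS34 fell by 0.53 with AML874 and by 0.44 with SEL120-34A on the log2 scale. MRPL12 fell by 0.55 with AML874 and MRPL27 by 0.46 with SEL120-34A, the largest changes of the set in these comparisons.

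Genes of the same pathway outside the set were counted for comparison. Of 5 proteins of the mitochondrial ribosome that carry other symbols, 4 were lower in DMSO cultures at 24 h, among them AURKAIP1 at -0.29 and DAP3, a small subunit GTPase, at -0.13. Of 26 tested ribosome assembly factors 17 were lower and 2 higher, with MALSU1, which binds the maturing large subunit, at -0.39 and the helicase DHX30 at -0.20. Of 14 translation factors 6 were lower, including the elongation factors TUFM at -0.16 and GFM1 at -0.24. Of 17 aminoacyl-tRNA synthetases of mitochondria 7 were lower and 1 higher. Of 16 genes of mitochondrial transcription and RNA processing 14 were lower and 1 higher, with SLIRP, a partner of LRPPRC in mRNA stability, at -0.35. Nuclear-encoded subunits of the respiratory chain and ATP synthase, which are built together with the products of this ribosome, were lower in 60 of 82 cases and higher in 1, with a median of -0.17. Cytosolic ribosomal protein genes were lower in 21 of 77 cases and higher in 13, with a median of -0.01. The 13 mitochondrially encoded mRNAs were lower in 5 cases and higher in 1, with MT-ND6 at -0.87. Together they held 5.47% to 5.54% of all counts in DMSO cultures at 24 h, against 5.44% to 5.68% at 8 h, and overlapped.

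HIF targets are genes induced by the hypoxia-inducible factors when oxygen is low. Of the 22 on the list 9 were higher at 24 h in DMSO cultures and none was lower. Their mean was 6.26, 5.99 and 5.99 log2 CPM at 24 h, against 5.45, 5.19 and 5.92 log2 CPM at 8 h, so the libraries did not overlap, but replicate 3 at 8 h came close to the 24 h values. With this mean as a covariate in the model, 51 of the 77 ribosomal protein genes were lower in DMSO cultures, 2 were higher, and the median was -0.16. In the compounds' own time comparisons 12 of the 22 HIF targets were higher and 1 lower with AML874, and 12 and 0 with SEL120-34A. The covariate left 49 lower with AML874 and 45 lower with SEL120-34A. For none of these counts with the covariate is the share of all genes given.

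The promoters of 6 genes are shown because these genes mark the extremes of the time and compound comparisons. Each is the stretch of 150 bases before the start that RefSeq gives on GRCh38.p14, on the gene's strand. This start is not the outer end of the gene in GENCODE release 29, which gave the gene coordinates: the stretches of MRPL36 and MRPS27 lie wholly inside the GENCODE gene and that of MRPL45 nearly so, and those of the other 3 overlap its end. Capitals mark matches, on either strand, to CCGGAAG (the ETS family), the NRF1 core (GCGC, any base, then TGCGC) or AAGATGGCG (YY1), factors known for binding near the starts of genes for mitochondrial proteins. MRPL36 (chr5:1799838-1799987, minus strand), MRPL55 (chr1:228109300-228109449, minus strand) and MRPS34 (chr16:1773135-1773284, minus strand) had the largest falls in DMSO cultures. MRPS27 (chr5:72320241-72320390, minus strand) rose. MRPL45 (chr17:38297018-38297167, plus strand) and MRPL54 (chr19:3762532-3762681, plus strand) had the largest mean rise and the largest mean fall with the compounds among the genes called in at least 2 of the 4 comparisons with DMSO.
MRPL36: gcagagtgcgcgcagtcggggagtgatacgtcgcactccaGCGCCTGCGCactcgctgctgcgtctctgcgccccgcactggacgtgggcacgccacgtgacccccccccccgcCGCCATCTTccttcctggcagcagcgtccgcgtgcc
MRPL55: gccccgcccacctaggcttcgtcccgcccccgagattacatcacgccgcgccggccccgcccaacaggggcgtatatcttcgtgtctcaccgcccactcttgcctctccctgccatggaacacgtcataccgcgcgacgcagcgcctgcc
MRPS34: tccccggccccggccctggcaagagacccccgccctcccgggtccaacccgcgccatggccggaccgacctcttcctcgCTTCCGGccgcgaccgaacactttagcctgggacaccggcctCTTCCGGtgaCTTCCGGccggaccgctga
MRPS27: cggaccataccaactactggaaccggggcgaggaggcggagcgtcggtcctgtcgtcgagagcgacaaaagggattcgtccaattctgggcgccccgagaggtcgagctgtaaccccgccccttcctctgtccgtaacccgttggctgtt
MRPL45: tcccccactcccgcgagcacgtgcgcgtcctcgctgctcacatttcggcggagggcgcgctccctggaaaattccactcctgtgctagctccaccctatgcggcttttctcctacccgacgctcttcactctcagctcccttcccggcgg
MRPL54: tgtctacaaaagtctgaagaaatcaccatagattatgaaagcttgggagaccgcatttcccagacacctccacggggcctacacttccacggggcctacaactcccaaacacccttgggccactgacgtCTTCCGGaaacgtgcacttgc
The MRPL36 stretch holds 1 match to the NRF1 letters and 1 to the YY1 letters, that of MRPS34 holds 3 to the ETS letters and that of MRPL54 holds 1. The stretches of MRPL55, MRPS27 and MRPL45 hold none. For MRPL45 the wider window of 300 bases used below does hold a match to the NRF1 letters, not wholly inside the printed stretch. A match is a run of letters and not a bound site, and the lack of one says nothing about the factor.

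RefSeq promoters were matched by symbol for 69 of the 78 genes, and not for MRPL2, MRPL10, MRPL13, MRPL15, MRPL21, MRPL23, MRPL35, MRPS28 and MRPS36. Windows of 300 bases were searched, 250 before the start and 50 after it. CCGGAAG on either strand was in 42.0% of the 69 and in 14.2% of 15843 promoters of RefSeq protein-coding genes, whether or not these were tested here. AAGATGGCG was in 18.8% against 2.74%, and the NRF1 core in 11.6% against 8.58%. GGGCGG, a letter run bound by SP1, was in 60.9% against 58.5%, and TGACG, the core of a CRE site, in 33.3% against 29.5%. Among tested genes with the ETS letters 21 of 28 were lower in DMSO cultures at 24 h, with a median of -0.25, and among those without them 31 of 40, with a median of -0.19. For the YY1 letters the counts were 7 of 13 with them and 45 of 55 without them, with a median of -0.20 in both.

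With AML874 for 24 h the set split in both directions. Against DMSO at 24 h, 22 of the 77 genes were higher and 15 lower, where 23.1% of all genes were higher and 23.7% lower. The counts were near these shares of all genes tested. Of the 13339 protein-coding genes tested, 24.4% were higher and 33.9% lower, against 28.6% and 19.5% of the set. The summed level was 4282, 4344 and 4386 CPM with AML874, against 4212, 4220 and 4133 CPM with DMSO, without overlap. The summed TPM of all 78 genes lay between 6307 and 6511 with AML874 and between 6444 and 6609 with DMSO, and overlapped. With median-of-ratios size factors 19 were higher and 20 lower, and with a filter of 1 CPM in 3 libraries 30 were higher and 8 lower. Without replicate 1 of AML874 at 24 h 9 were lower. The shares of all genes called under these settings are not given, so these counts are not results about the set alone. By subunit, 13 of 50 genes of the large subunit were higher and 12 lower, and 9 of 26 of the small subunit were higher and 3 lower.

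MRPS33, a mitochondrion-specific protein of the small subunit, had the largest rise. It had 30.2, 29.6 and 30.1 CPM with AML874 at 24 h, against 24.0, 22.5 and 21.7 CPM with DMSO, and the groups did not overlap. The change was 0.40 ± 0.04 (edgeR adjusted p = 2.07e-10), or 1.32-fold. MRPS18B, one of 3 homologues of a single bacterial protein, had 63.9, 63.7 and 62.4 CPM with AML874, against 52.3, 50.1 and 49.2 CPM with DMSO. It was higher in all 3 libraries, by 0.33 ± 0.03 (edgeR adjusted p = 3.11e-11). MRPS21, which has a bacterial homologue in the small subunit, had 97.8, 97.9 and 101 CPM with AML874, against 80.9, 81.3 and 80.2 CPM with DMSO. Its groups stood well apart, by 0.29 ± 0.03 (edgeR adjusted p = 5.25e-11). MRPS16, a small subunit protein whose loss causes a human respiratory chain disease, was higher by 0.24 ± 0.03 (edgeR adjusted p = 1.31e-08). The largest falls were those of MRPL54, MRPS6, MRPL14 (-0.21), MRPL47, MRPL27 (-0.17) and MRPS18C (-0.14), each with separate groups.

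With SEL120-34A for 24 h, 28 genes were higher and 8 lower than with DMSO, where 19.1% of all genes were higher and 18.6% lower, and the median was 0.04. Of the protein-coding genes tested, 22.2% were higher and 25.9% lower, against 36.4% and 10.4% of the set. The higher genes were 16 of the 50 of the large subunit and 12 of the 26 of the small subunit, and the lower ones 7 and 1. The summed level was 4416, 4250.2 and 4456 CPM with SEL120-34A, against 4212, 4220 and 4133 CPM with DMSO, without overlap. Summed TPM of all 78 genes lay between 6562 and 6850 with SEL120-34A and between 6444 and 6609 with DMSO, and overlapped. MRPS21 rose by 0.30 ± 0.03 (edgeR adjusted p = 4.99e-11) and MRPL41, a mitochondrion-specific protein of the large subunit, by 0.28 ± 0.04 (edgeR adjusted p = 4.13e-06). MRPS18B rose by 0.26 ± 0.03 (edgeR adjusted p = 9.2e-09). The falls were smaller, from -0.15 for MRPS6 and -0.15 for MRPL54 to -0.07 for MRPL42. Without replicate 2 of SEL120-34A at 24 h 3 genes were lower, and without replicate 1 of DMSO 5 were. The shares of all genes called without these libraries are not given.

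At 8 h more genes were higher than lower with both compounds. With AML874, 27 of the 77 were higher than with DMSO and 9 lower, where 19.7% of all genes were higher and 19.9% lower, and the median was 0.06. Of the protein-coding genes tested, 22.8% were higher and 27.2% lower, against 35.1% and 11.7% of the set. With SEL120-34A, 25 were higher and 14 lower, where 22.4% of all genes were higher and 22.6% lower, and the median was 0.03. Here 25.7% of the protein-coding genes were higher and 29.8% lower, against 32.5% and 18.2% of the set. Scaled by library totals alone, the counts were 43 higher and 2 lower with AML874 and 40 higher and 4 lower with SEL120-34A. The scaling factors left out there were 0.971 to 0.979 with DMSO and 1.00 to 1.02 with the compounds, a shift shared by all genes. The share of all genes called under this scaling is not given, so these counts are not a result about the set. The summed level was 5023, 4984 and 5136 CPM with AML874 and 4923, 4809 and 4951 CPM with SEL120-34A, against 4860, 4884 and 4659.9 CPM with DMSO. By summed CPM the AML874 libraries lay above those with DMSO, and the SEL120-34A libraries overlapped with those with DMSO. Summed TPM of all 78 genes lay between 7752 and 7904 with AML874 and between 7618 and 7762 with SEL120-34A. With DMSO it lay between 7164 and 7479, below both compounds. Without replicate 3 of DMSO at 8 h the median was 0.02 with AML874 and -0.02 with SEL120-34A, and without replicate 3 of AML874 it was 0.03 with AML874. By subunit, 14 of 50 large subunit genes were higher and 8 lower with AML874, and 13 of 26 small subunit genes were higher and 1 lower. The counts with SEL120-34A were 16 and 9 in the large subunit and 8 and 5 in the small subunit. Among the largest rises with AML874 were MRPS17, MRPL2, MRPL45, MRPL4 (0.23), MRPL10 and MRPS27 (0.21). With SEL120-34A MRPS17, MRPL2, MRPL10, MRPS31 (0.22), MRPL45 and MRPS14 (0.21) rose most. The falls with AML874 were led by MRPL54, MRPL48 (-0.19) and MRPL32 (-0.13), a protein whose maturation depends on the m-AAA protease. Those with SEL120-34A, MRPS24 aside, were led by MRPS6, MRPL3, MRPL23 (-0.16) and MRPS5 (-0.14), and the MRPL23 call ended without any 1 of 5 of its 6 libraries, where the value lay between -0.18 and -0.11.

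**Figure D3:**
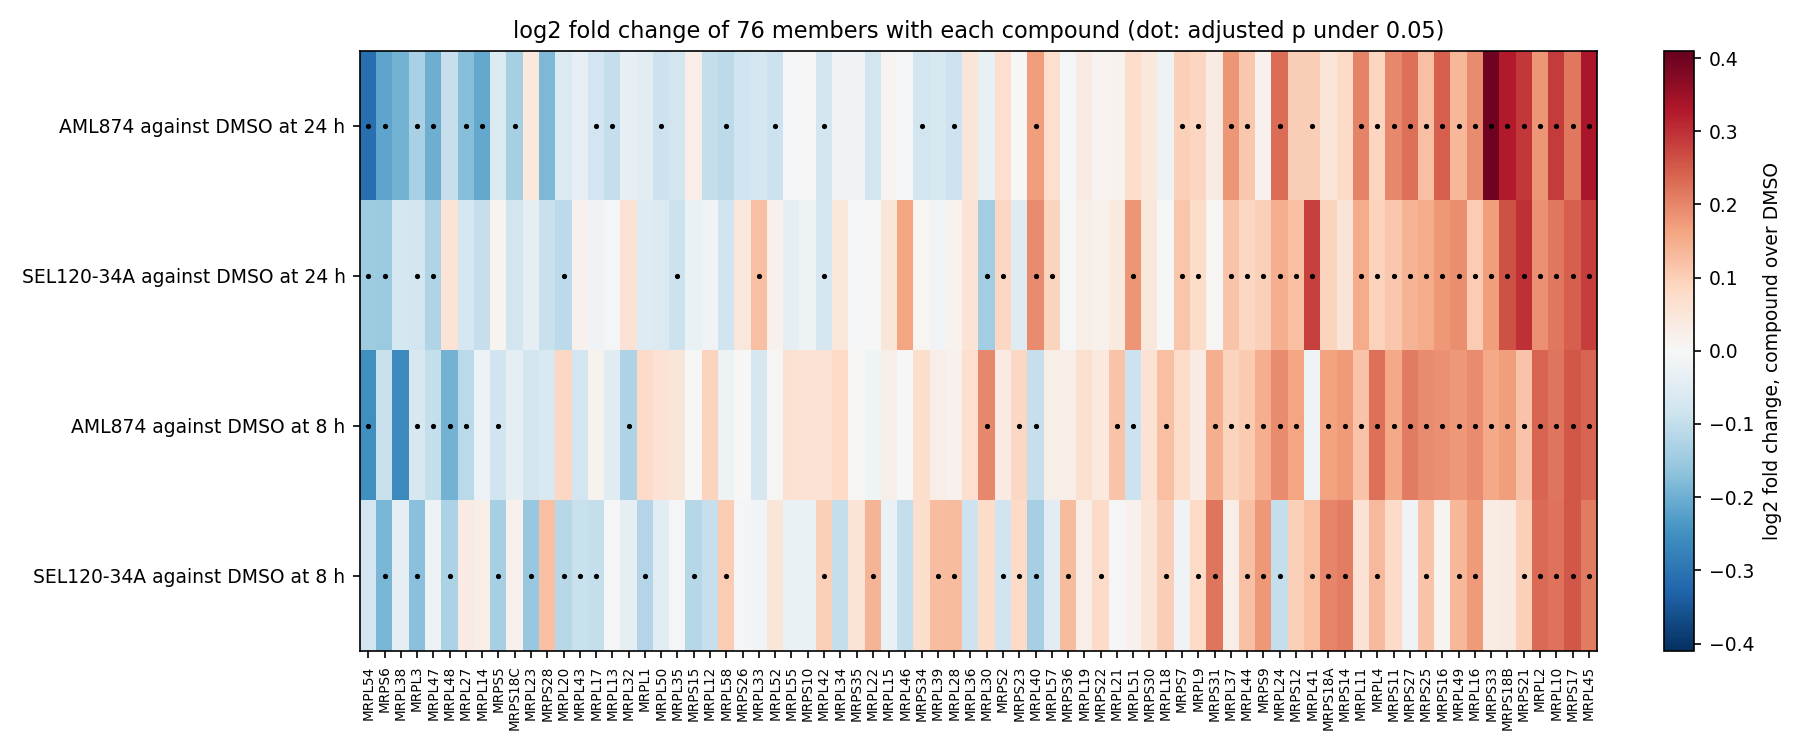
Colour gives the log2 fold change of each of 76 genes (columns, ordered by their mean over the 4 rows) with a compound over DMSO, and dots mark an adjusted p under 0.05. MRPS24 is not drawn because it had 35 to 89 counts in a library. MRPL54 at the left is at -0.31 with AML874 at 24 h, and MRPL45 at the right lies between 0.21 and 0.33 in all 4 rows.

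Among genes called in at least 2 of these 4 comparisons, the 4 with the largest mean rise were higher with both compounds at both times. MRPL45 (chr17:38297023-38323218), a protein that tethers the large subunit to the inner membrane, had 73.9, 72.5 and 72.1 CPM with AML874 and 68.6, 71.6 and 70.7 CPM with SEL120-34A at 24 h, against 61.1, 55.9 and 56.4 CPM with DMSO. At 8 h it had 72.0, 69.7 and 71.2 CPM with AML874 and 69.7, 70.9 and 68.9 CPM with SEL120-34A, against 61.5, 57.8 and 61.5 CPM with DMSO. All 12 libraries with a compound lay above all 6 with DMSO. For AML874 the change was 0.33 ± 0.03 at 24 h and 0.24 ± 0.03 at 8 h, and for SEL120-34A it was 0.28 ± 0.03 at 24 h and 0.21 ± 0.03 at 8 h, with an edgeR adjusted p of at most 1.03e-06.

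MRPL10 (chr17:47823272-47831534), part of the stalk of the large subunit, had 43.2, 40.3 and 41.2 CPM with AML874 and 37.9, 40.4 and 40.4 CPM with SEL120-34A at 24 h, against 35.0, 34.2 and 32.9 CPM with DMSO. At 8 h its levels were 38.2, 38.7 and 39.3 CPM with AML874 and 39.1, 38.7 and 38.7 CPM with SEL120-34A, against 32.9, 33.6 and 33.3 CPM with DMSO. No library with DMSO reached the level of any library with a compound. At 24 h the change was 0.29 ± 0.03 for AML874 and 0.22 ± 0.03 for SEL120-34A, and at 8 h both were 0.22 ± 0.03 (edgeR adjusted p of at most 3.04e-06).

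MRPL2 (chr6:43054029-43059806), a core protein near the peptidyl transferase centre, had 34.2, 34.5 and 34.5 CPM with AML874 and 34.6, 32.8 and 36.2 CPM with SEL120-34A at 24 h, against 29.8, 31.4 and 29.9 CPM with DMSO. The levels at 8 h were 38.9, 39.2 and 40.4 CPM with AML874 and 38.7, 39.4 and 40.0 CPM with SEL120-34A, against 33.8, 34.2 and 32.5 CPM with DMSO. The groups did not overlap within a time, although MRPL2 was also lower in DMSO cultures at 24 h than at 8 h. The changes lay between 0.18 and 0.24 (edgeR adjusted p of at most 5.85e-05).

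MRPS17 (chr7:55951819-55956501), a small subunit protein with a bacterial homologue, had 9.62, 9.72 and 10.2 CPM with AML874 and 10.2, 9.79 and 10.1 CPM with SEL120-34A at 24 h, against 8.68, 8.37 and 8.38 CPM with DMSO. In the 8 h cultures it had 12.2, 11.7 and 11.4 CPM with AML874 and 12.0, 11.4 and 11.9 CPM with SEL120-34A, against 10.6, 9.84 and 9.18 CPM with DMSO. It was higher with both compounds at both times, without overlap, by 0.22 to 0.26 (edgeR adjusted p of at most 0.00113). Its gene counts were 38.6% of its RSEM expected counts, and by the expected counts the changes at 24 h were 0.10 for AML874 and 0.11 for SEL120-34A, and those at 8 h were 0.20 and 0.13, all called.

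MRPS24 had the largest mean fall of all, -0.41, but was called in 1 of the 4 comparisons and rests on few counts. Of the 4 genes with the largest mean fall among those called in at least 2, MRPL54 (chr19:3762664-3768575), a mitochondrion-specific protein of the large subunit, was lowest with AML874. At 24 h it had 25.2, 23.9 and 24.1 CPM with AML874 and 28.2, 25.5 and 28.2 CPM with SEL120-34A, against 29.8, 30.7 and 30.1 CPM with DMSO. At 8 h it had 31.0, 30.6 and 32.4 CPM with AML874 and 35.2, 36.4 and 34.4 CPM with SEL120-34A, against 39.2, 38.0 and 34.7 CPM with DMSO. The AML874 libraries were separate from those with DMSO at both times, and the SEL120-34A libraries at 24 h only. The change with AML874 was -0.31 ± 0.04 at 24 h and -0.25 ± 0.04 at 8 h (edgeR adjusted p = 1.49e-07 and 6.33e-06). With SEL120-34A the change was -0.15 ± 0.04 at 24 h (edgeR adjusted p = 0.00554) and -0.08 ± 0.04 at 8 h (edgeR adjusted p = 0.126). Without replicate 2 of SEL120-34A the value at 24 h was -0.10 and not called.

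MRPS6 (chr21:34073224-34143034), which has a bacterial homologue in the small subunit, had 18.3, 18.3 and 18.4 CPM with AML874 and 19.2, 18.3 and 19.9 CPM with SEL120-34A at 24 h, against 20.9, 21.6 and 21.4 CPM with DMSO. At 8 h its levels were 24.3, 23.5 and 25.3 CPM with AML874 and 24.0, 21.9 and 22.5 CPM with SEL120-34A, against 25.1, 27.3 and 25.4 CPM with DMSO. It was lower at 24 h with both compounds, with changes of -0.22 ± 0.04 for AML874 and -0.15 ± 0.04 for SEL120-34A (edgeR adjusted p = 6.75e-05 and 0.00462). At 8 h it was lower with SEL120-34A, -0.19 ± 0.04 (edgeR adjusted p = 0.000407), and with AML874, where the libraries overlapped, it lay at -0.09 ± 0.04 (edgeR adjusted p = 0.0827).

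MRPL3 (chr3:131462212-131502983), a core protein of the large subunit, had 139, 140.3 and 146 CPM with AML874 and 149.8, 142.5 and 149 CPM with SEL120-34A at 24 h, against 157, 154 and 155 CPM with DMSO. The levels at 8 h were 183, 179.7 and 182 CPM with AML874 and 170.4, 166 and 169.8 CPM with SEL120-34A, against 193, 195 and 183 CPM with DMSO. The AML874 libraries at 8 h reached into the DMSO range, and the other groups were separate. At 24 h the changes were -0.13 ± 0.03 for AML874 and -0.08 ± 0.03 for SEL120-34A, and at 8 h they were -0.07 ± 0.03 for AML874 and -0.17 ± 0.03 for SEL120-34A (edgeR adjusted p of at most 0.044). Under scaling by library totals alone the value with AML874 at 8 h was -0.02 and not called, and the call also ended without replicate 2 of AML874 (-0.07) or without replicate 1 (-0.07) or 2 (-0.06) of DMSO. The value with SEL120-34A at 24 h was not called without replicate 2 of SEL120-34A (-0.06) or replicate 1 of DMSO (-0.07).

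MRPL47 (chr3:179588285-179604654), a large subunit protein at the exit of the peptide tunnel, had 38.6, 40.4 and 40.7 CPM with AML874 and 42.8, 39.9 and 43.3 CPM with SEL120-34A at 24 h, against 45.1, 46.9 and 45.4 CPM with DMSO. In the 8 h cultures it had 52.5, 50.7 and 51.8 CPM with AML874 and 55.3, 53.0 and 54.8 CPM with SEL120-34A, against 55.6, 56.2 and 53.8 CPM with DMSO. The compounds' libraries were below those with DMSO at 24 h, and at 8 h this held for AML874 only. At 24 h the changes were -0.20 ± 0.03 for AML874 and -0.12 ± 0.03 for SEL120-34A (edgeR adjusted p = 5.46e-06 and 0.00309). At 8 h the change with AML874 was -0.10 ± 0.03 (edgeR adjusted p = 0.018), and with library totals as the only scaling it was -0.05 and not called.

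**Figure D4:**
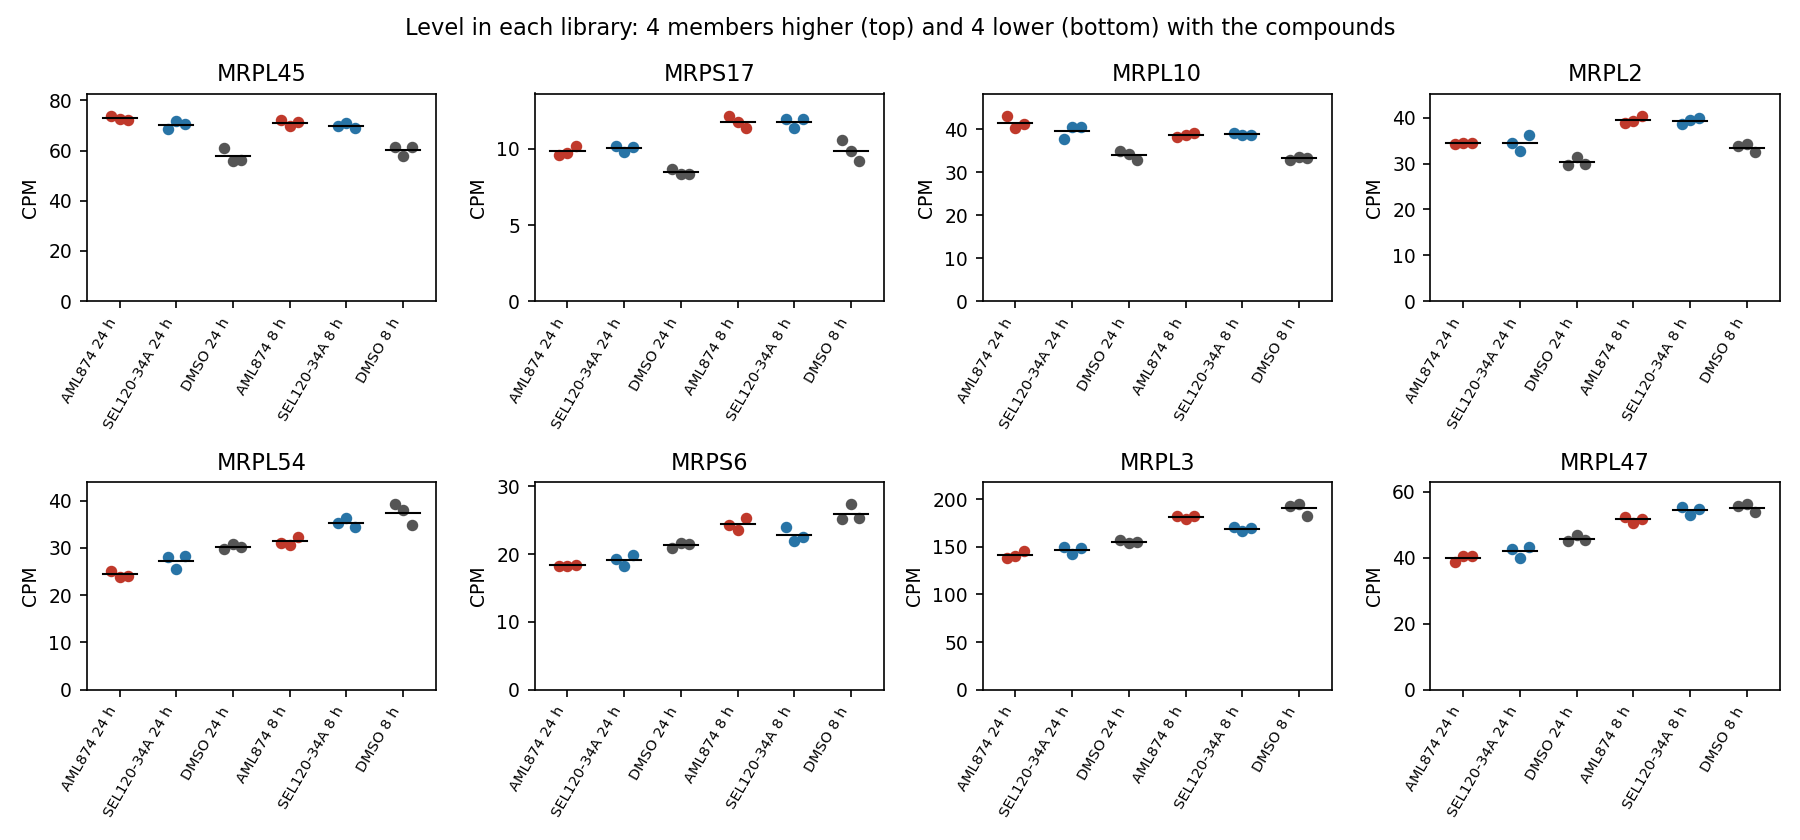
Each panel gives the level of 1 gene (CPM) in every library, 3 points per group, with a line at the mean. In the top row the compounds' libraries lie above those with DMSO at the same time, and in the bottom row the levels at 24 h lie below those at 8 h in every treatment, for MRPL54 down to 23.9 CPM with AML874.

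The calls at the 2 times were set beside each other for each compound, since the comparisons at 24 h and at 8 h share no library. Of the genes higher with AML874, 18 were called at both times, which is 81.8% of the 22 at 24 h and 66.7% of the 27 at 8 h. Over all genes tested the shared calls were 51.3% of those higher at 24 h and 60.1% of those higher at 8 h. The 18 include MRPL2, MRPL4, MRPL10, MRPL45, MRPS16, MRPS17, MRPS18B, MRPS27 and MRPS33. Of those lower with AML874, 4 were called at both times, namely MRPL3, MRPL27, MRPL47 and MRPL54, which is 26.7% of the 15 at 24 h and 44.4% of the 9 at 8 h, against 53.9% and 64.3% over all genes. With SEL120-34A 13 genes were higher at both times, which is 46.4% of the 28 at 24 h and 52.0% of the 25 at 8 h, against 52.8% and 44.9% over all genes. The 3 lower at both times, MRPL3, MRPL20 and MRPS6, are 37.5% of the 8 at 24 h and 21.4% of the 14 at 8 h, against 56.9% and 46.7% over all genes.

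Other genes of mitochondrial expression were counted in the same comparisons. Of 14 translation factors 9 were higher with AML874 at 24 h and 1 lower, among them TUFM at 0.20, the initiation factor MTIF2 at 0.23 and OXA1L, which inserts new peptides into the inner membrane, at 0.21. With SEL120-34A at 24 h 6 of the 14 were higher and none lower. Of 26 assembly factors 12 were higher and 3 lower with AML874 at 24 h, with the GTPase NOA1 at 0.36, and 10 were higher and none lower with SEL120-34A. At 8 h 8 of the 14 translation factors were higher and 1 lower with AML874, and 6 and 0 with SEL120-34A. The assembly factors at 8 h were higher in 12 cases and lower in 1 with AML874, and higher in 11 and lower in 8 with SEL120-34A. LRPPRC, which stabilises mitochondrial mRNAs, was higher by 0.35 with AML874 and by 0.19 with SEL120-34A at 24 h. Of the 13 mitochondrially encoded mRNAs 12 were higher with AML874 at 24 h, where their median was 0.37 and MT-CO1 stood at 0.44, and 4 were higher with SEL120-34A, with a median of 0.10. The share of all counts from these 13 mRNAs was 7.25%, 6.91% and 7.33% with AML874 at 24 h, against 5.51%, 5.54% and 5.47% with DMSO.

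Of 8 tested regulators of mitochondrial biogenesis none was higher with either compound at either time. At 24 h 6 were lower with AML874, including NRF1 at -0.34, GABPB1, a subunit of the ETS factor NRF2, at -0.39, the receptor ESRRA at -0.30 and MYC at -0.23. With SEL120-34A at 24 h 5 were lower, with ESRRA at -0.34 and GABPB1 at -0.22. At 8 h 6 were lower with AML874 and 7 with SEL120-34A. Cytosolic ribosomal protein genes were higher in 52 of 77 cases and lower in 4 with AML874 at 24 h, and in 36 and 4 with SEL120-34A. HIF targets were lower in 10 of 22 cases with AML874 and in 7 with SEL120-34A at 24 h, and in 10 and 8 at 8 h, and none was higher. With the HIF target mean as a covariate, 19 ribosomal protein genes were higher and 24 lower with AML874 at 24 h, 22 and 14 with SEL120-34A at 24 h, 25 and 15 with AML874 at 8 h, and 22 and 20 with SEL120-34A at 8 h. The shares of all genes called in that model are not given, so these counts are not results about the set alone.

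The compounds were compared directly at each time, which is 1 pair at 2 times, with p-values adjusted over all genes. At 24 h 3 genes were higher and 11 lower with AML874 than with SEL120-34A, where 8.0% of all genes were higher and 11.6% lower. With library totals as the only scaling 6 were higher and 7 lower, and with a filter of 1 CPM in 3 libraries 10 and 7. Leaving out replicate 1 of AML874 gave 6 higher and 4 lower, and leaving out its replicate 3 gave 1 higher. The lower count was 6 without replicate 2 of AML874, 5 without replicate 1 of SEL120-34A and 4 without its replicate 3. The shares of all genes called under these settings are not given. MRPS33 had 30.2, 29.6 and 30.1 CPM with AML874, against 26.3, 24.2 and 26.1 CPM with SEL120-34A, a difference of 0.23 ± 0.04 (edgeR adjusted p = 5.98e-05) with no overlap. MRPL33, a small protein of the large subunit with a bacterial homologue, had 64.2, 62.2 and 60.7 CPM with AML874, against 68.7, 73.1 and 71.9 CPM with SEL120-34A. The difference was -0.19 ± 0.03 (edgeR adjusted p = 6.11e-05), and the AML874 libraries lay below all of the others. MRPL41 differed by -0.18 ± 0.04 (edgeR adjusted p = 0.00256) and MRPL54 by -0.16 ± 0.04 (edgeR adjusted p = 0.00492).

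At 8 h 21 genes were higher and 9 lower with AML874 than with SEL120-34A, where 16.0% of all genes were higher and 15.2% lower. Scaled by library totals alone, 16 were higher and 12 lower, and without replicate 2 of AML874 5 were lower. The shares of all genes called under these settings are not given. MRPL24, which helps to form the exit of the peptide tunnel, had 119.8, 121 and 127 CPM with AML874, against 102, 95.1 and 103 CPM with SEL120-34A. The groups were far apart, by 0.29 ± 0.03 (edgeR adjusted p = 6.46e-09). MRPS27 had 158, 157 and 167 CPM with AML874, against 137, 137 and 138 CPM with SEL120-34A, a difference of 0.23 ± 0.02 (edgeR adjusted p = 6.97e-09). MRPL54 differed by -0.17 ± 0.04 (edgeR adjusted p = 0.00128). The genes shown as rising most with both compounds were not called between them. The 95% interval of the log2 difference was -0.01 to 0.12 at 24 h and -0.04 to 0.09 at 8 h for MRPL45, -0.08 to 0.06 and -0.07 to 0.08 for MRPL2, and -0.14 to 0.08 and -0.11 to 0.11 for MRPS17. MRPL10 differed most of the 4, by 0.07 at 24 h (0.00 to 0.14, edgeR adjusted p = 0.149), and its interval at 8 h was -0.07 to 0.06.

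The effect of each compound at 24 h was tested against its effect at 8 h. For AML874 the log2 change of 5 genes was higher at 24 h and that of 9 lower, where the shares of all genes were 11.1% and 12.5%. For SEL120-34A the counts were 14 and 9, where the shares were 14.2% and 13.0%, so the counts were near those of all genes. Under scaling by library totals alone they were 5 and 25 for AML874 and 4 and 23 for SEL120-34A. The shares of all genes under that scaling are not given. The count of lower ones for AML874 was 5 without its replicate 1 at 8 h, 4 without its replicate 3 at 8 h, and 5, 2 and 5 without replicates 1 and 3 of DMSO at 8 h and replicate 2 of DMSO at 24 h. For SEL120-34A it was 5 and 4 without its replicates 1 and 3 at 8 h, 3 without replicate 3 of DMSO at 8 h, and 5 without replicate 1 or 2 of DMSO at 24 h. For none of these counts with a library left out is the share of all genes given. The change of MRPL40, a mitochondrion-specific protein of the large subunit, over DMSO had opposite directions at the 2 times with both compounds. Both values share the DMSO libraries, in which the mean of MRPL40 was 29.1 CPM at 8 h and 23.2 CPM at 24 h. Its means at 8 h and 24 h were 27.2 and 26.2 CPM with AML874 and 26.4 and 26.6 CPM with SEL120-34A. It had 26.5, 26.2 and 25.9 CPM with AML874 and 27.4, 25.9 and 26.4 CPM with SEL120-34A at 24 h, against 23.3, 23.3 and 23.1 CPM with DMSO. At 8 h it had 27.2, 26.9 and 27.5 CPM with AML874 and 25.8, 26.8 and 26.7 CPM with SEL120-34A, against 29.6, 28.8 and 28.7 CPM with DMSO. The compounds' libraries were above DMSO at 24 h and below it at 8 h, and the differences of the effects were 0.27 ± 0.05 for AML874 and 0.33 ± 0.05 for SEL120-34A (edgeR adjusted p = 7.65e-05 and 2.37e-06). With library totals as the only scaling neither value at 8 h passed the test.

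MRPS18A, MRPS18B and MRPS18C descend from 1 ancestral protein and sit in different places, MRPS18A in the large subunit and the others in the small. MRPS18A and MRPS18B were counted above with the mitochondrion-specific genes, and MRPS18C with those that have a bacterial homologue. With AML874 at 24 h the changes were 0.33 ± 0.03 for MRPS18B, 0.05 ± 0.04 for MRPS18A and -0.14 ± 0.04 for MRPS18C (edgeR adjusted p = 3.11e-11, 0.305 and 0.00187). With time in DMSO cultures MRPS18C fell by 0.34 on the log2 scale (edgeR adjusted p = 1.18e-09), with 27.0, 27.5 and 28.8 CPM at 24 h, against 35.7, 36.3 and 33.4 CPM at 8 h. MRPS18A and MRPS18B lay at -0.02 and -0.03 and did not pass, and with library totals as the only scaling both lay above 0. The differences between the 3 genes were not tested. MRPS36 did not pass with either compound at 24 h, where both values lay between -0.01 and 0.00, and with SEL120-34A at 8 h it was 0.13 ± 0.04 (edgeR adjusted p = 0.00403).

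For 10 of the 78 genes the 2 kinds of deposited count differed widely. Their STAR gene counts were under 90% of their RSEM expected counts, and 9 of the 10 share exon bases with another gene on the same strand in GENCODE release 29, where STAR gene counts leave out reads that fall in both. MRPL53 (chr2:74471958-74473322, minus strand), a mitochondrion-specific protein of the large subunit, had 0 to 3 gene counts in a library and failed the filter. RSEM gave it a mean expected count of 2342 and a mean of 83.7 TPM, and CCDC142 covers 45.2% of its exon bases. The shares were 0.689% for MRPS24, 3.62% for MRPL38, 14.6% for MRPL12, 15.0% for MRPL46, 16.6% for MRPS28, 27.7% for MRPL23, 38.6% for MRPS17, 65.4% for MRPS6 and 75.3% for MRPL30. MRPL23 shares no exon bases on its strand in this annotation. Some genes above 90% do share them, such as MRPL33, with 21.1% shared and gene counts at 123.5% of the RSEM expected counts. Whether the sharing lowered the counts was not tested. The annotation release the authors used is not given in the sources used here.

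**Figure D5:**
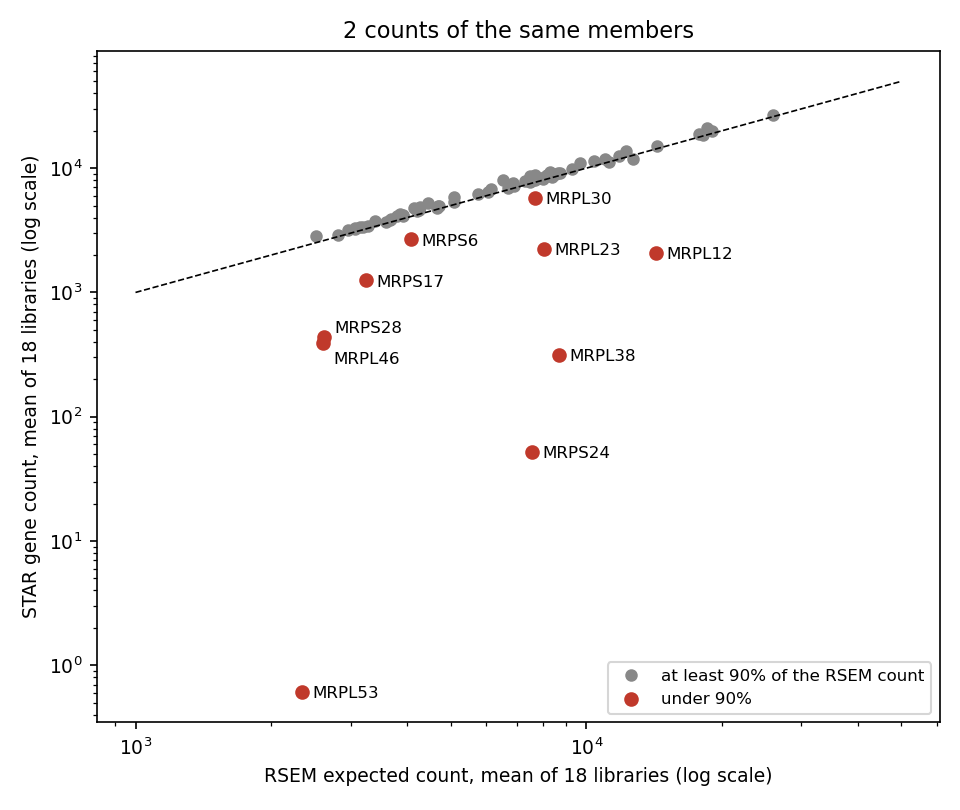
Each point is 1 of the 78 genes, with the mean RSEM expected count of the 18 libraries across and the mean STAR gene count up, both on log scales, and a dashed line where they are equal. The 10 named genes lie under 90% of the expected count, with MRPL53 lowest.

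MRPS24, a small subunit protein with a bacterial homologue, was called by the gene counts and not by the expected counts. It had 36, 35 and 35 gene counts with SEL120-34A at 8 h, against 62, 53 and 61 with DMSO, and was called lower at -0.78 ± 0.23 (edgeR adjusted p = 0.00617). By RSEM expected counts the change was -0.03 (edgeR adjusted p = 0.449). The call of MRPS24 in AML874 over SEL120-34A at 8 h, 0.70, was -0.01 by expected counts. The gene counts behind it were 89, 49 and 47 with AML874, against 36, 35 and 35 with SEL120-34A, and without replicate 1 of AML874 the change was 0.46, or without replicate 1 of SEL120-34A 0.65, and not called. MRPL12 kept its fall in DMSO cultures, at -0.29 by expected counts (edgeR adjusted p = 3.53e-06), and MRPS6 kept its fall with AML874 at 24 h, at -0.19 (edgeR adjusted p = 8.01e-05). In the fit of expected counts, which holds all 78 genes, 62 were lower and 1 higher in DMSO cultures at 24 h, and 20 were higher and 16 lower with AML874 at 24 h. The shares of all genes called in that fit are not given, so these counts are not results about the set alone. Among the 68 genes at or above 90%, a restriction chosen after the data had been seen, 55 were lower and 1 higher in DMSO cultures, and 21 were higher and 14 lower with AML874 at 24 h.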

How the data were processed

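Polyadenylated RNA of 18 OCI-AML1 libraries, 3 in each of 6 groups, was analysed from the deposited tables. Per the submitters' processing notes, STAR 2.7.1a and RSEM 1.3.2 were used with GRCh38, and the annotation release is not given in the sources used here. The authors deposited whole-number counts per gene in STAR's layout with an unstranded and 2 stranded columns, of which the column for the reverse strand was used. The authors also deposited RSEM expected counts and TPM per gene. The 4 summary lines of each count table were left out, and their share was 21.9% to 25.5% of the library. A count of 3, the floor of detection, equals 0.0211 to 0.0303 CPM and covers counting error only.

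Counts were filtered with filterByExpr, which removed 0.0163% of counts and left 20920 genes, scaled by TMM and fitted with edgeR 4.0.16 in R 4.3.3 as 1 robust quasi-likelihood model of 6 groups with 12 residual degrees of freedom. Libraries with the same replicate number had a correlation of deviations over 0.1 in all 3 pairs for AML874 and DMSO at 24 h (0.375, 0.174 and 0.241). This also held for SEL120-34A at 24 h and 8 h (0.254, 0.504 and 0.16), and not for the other 13 pairs of groups. Libraries with different numbers reached 0.593, for replicate 3 of DMSO at 8 h and replicate 2 of SEL120-34A at 24 h. These values therefore do not show that the numbers pair the libraries. There were 11 comparisons, all adjusted over all genes. Both compounds' comparisons share the DMSO libraries, which also form the DMSO time comparison. CPM values carry a prior count of 2 only on the log2 scale. On counts simulated for AML874 against DMSO at 24 h over 20483 genes, the test recovered 16 of 50 genes changed 1.1-fold, 43 of 50 changed 1.25-fold and 49 of 50 changed 1.5-fold, with 9 false calls among 20283. Few genes were changed in the simulation and its counts were drawn independently, whereas 9799 of 20920 genes were called in the data. These rates may therefore not hold for the real comparison.

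Genes were named by a rule. In each comparison it takes the 6 largest rises and falls among called genes whose groups do not overlap, and for differences of effects the 3 largest each way. It shows in full the 4 genes with the largest mean rise and fall over the 4 comparisons with DMSO among those called in at least 2 of them, gives the 5 highest and lowest levels, and adds the MRPS18 genes and MRPS36. MRPL42, MRPL44, MRPS25 and MRPL46, named as ends of a range or as members of a class, were chosen after their values were seen. The members, the gene lists and the rule were chosen with earlier results of these data known. The 24 h against 8 h comparisons within each compound and the restriction to genes at 90% of the RSEM count were added after the data had been seen. Alternatives were other scalings, filters, limma 3.58.1 voom, DESeq2 1.42.0, unstranded counts, rounded expected counts, a model of only the groups compared, the replicate number as a block, the mean of 22 HIF targets as a covariate, and each library left out. Of 60609 identifiers 60340 carried a symbol in the reference tables, and 58502 were in GENCODE release 29 (GRCh38), which gave gene coordinates. Promoters came from RefSeq on GRCh38.p14. Tables and figures used Python 3.11.15, pandas 2.3.3 and matplotlib 3.10.9.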

Additional observations from a re-analysis of the deposited data

Results flagged for a closer look

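Several genes of the mitochondrial ribosome had a compound effect at 24 h that differed from the effect of the same compound at 8 h, by the edgeR test of the difference itself. For AML874 the differences on the log2 scale were 0.27 for MRPL40, 0.25 for MRPS33 and 0.17 for MRPS21. They were -0.23 for MRPL30, -0.19 for MRPL14 and -0.15 for MRPS34. The MRPL14 value lost its call when any of 7 of the 12 libraries was left out. The MRPS34 value lost it without replicate 3 of AML874 at 8 h, replicate 3 of DMSO at 8 h or replicate 2 of DMSO at 24 h.

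For SEL120-34A the differences were 0.33 for MRPL40, 0.25 for MRPL24 and 0.22 for MRPS18B. They were -0.22 for MRPL30, -0.21 for MRPS31 and -0.19 for MRPL58, which lost its call without any of 4 libraries. MRPL40 and MRPL30 were at the extremes for both compounds, whose values share the 6 DMSO libraries. MRPL30 had 43.4, 45.6 and 45.1 CPM with AML874 and 40.7, 39.6 and 43.5 CPM with SEL120-34A at 24 h, against 47.2, 45.5 and 44.2 CPM with DMSO. At 8 h it had 54.9, 55.4 and 55.4 CPM with AML874 and 50.2, 49.8 and 52.3 CPM with SEL120-34A, against 47.9, 48.6 and 48.0 CPM with DMSO. Its gene counts were 75.3% of its RSEM expected counts.

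MRPL53 had 0 to 3 gene counts in a library but a mean of 83.7 TPM by RSEM, so its signal lay outside the gene counts that the main comparisons used and entered only the alternative fit of expected counts.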

How the results depend on the processing

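With library totals as the only scaling the counts of genes were 43 higher and 2 lower for AML874 at 8 h (median 0.105), 40 and 4 for SEL120-34A at 8 h (median 0.0919), 6 and 7 for AML874 against SEL120-34A at 24 h, and 3 higher for DMSO with time (median -0.164). For the difference of effects 25 were lower for AML874 (median -0.0947), and 4 were higher and 23 lower for SEL120-34A (median -0.0659). For SEL120-34A with time 2 were higher (median -0.22). With the HIF target mean as a covariate 15 were lower for AML874 at 8 h (median 0.0191), 24 for AML874 at 24 h, 14 for SEL120-34A at 24 h and 17 for AML874 against SEL120-34A at 24 h. With time 2 were higher in DMSO (median -0.155), and the medians were -0.158 for AML874 and -0.137 for SEL120-34A. With a filter of 1 CPM in 3 libraries 8 were lower for AML874 at 24 h (median 0.0358), 10 higher and 7 lower between the compounds at 24 h, 2 higher for DMSO with time, 9 higher for the difference of effects of AML874, and 5 higher for AML874 with time (median -0.17). Between the compounds at 24 h no filter gave 5 higher, expected counts 5 higher and the model of only those groups 6 lower. The causes were not tested. The shares of all genes called under these settings are not given, so these counts are not results about the set alone.

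Leaving out each library in turn gave 21 to 27 higher and 7 to 12 lower for AML874 at 8 h (median 0.0187 to 0.052), 18 to 24 and 11 to 18 for SEL120-34A at 8 h (median -0.0196 to 0.0285), 19 to 23 and 9 to 14 for AML874 at 24 h and 21 to 29 and 3 to 9 for SEL120-34A at 24 h. Between the compounds it gave 14 to 22 higher and 5 to 10 lower at 8 h and 1 to 6 and 4 to 13 at 24 h. With time 53 to 62 were lower in DMSO, 54 to 62 with AML874 (median -0.21 to -0.176), and 52 to 58, with 2 to 4 higher, with SEL120-34A. For the differences of effects 2 to 11 were lower for AML874 (median -0.0594 to -0.0037) and 3 to 8 for SEL120-34A (median -0.0072 to 0.0467). The shares of all genes called with a library left out are not given, so these ranges are not results about the set alone.

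Of 45 pairs of libraries with the same number 10 had a correlation of deviations over 0.1, 6 of them in the 2 pairs of groups named above. The values lay between -0.542 and 0.504 over 10513 genes, and pairs with different numbers reached 0.593. With the replicate number as a block 27 were higher and 8 lower for AML874 at 8 h, 23 and 15 for SEL120-34A at 8 h, 21 and 15 for AML874 at 24 h, 27 and 8 for SEL120-34A at 24 h, 1 and 58 for DMSO with time, 3 and 63 for AML874 with time and 3 and 57 for SEL120-34A with time. The shares of all genes called under the block are not given either. MRPL3 with AML874 at 8 h lost its call under the block, at -0.07, and no call of another named gene changed.

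Of the values of named genes 32 changed sign, and apart from MRPS24 none of these was called. MRPS24 between the compounds at 8 h was -0.0097 by expected counts. MRPS36 was 0.0208 for AML874 and 0.0107 for SEL120-34A at 24 h with the filter of 1 CPM, and 0.001 for SEL120-34A at 24 h unstranded. Between the compounds at 24 h MRPS36 was 0.0101 with that filter, 0.001 with no filter, 0.0016 with library totals alone, 0.0045 in the model of only the groups and 0.0185 by expected counts. With a library left out MRPS36 lay between -0.006 and 0.0347 for AML874 at 8 h, between -0.0211 and 0.0007 for AML874 at 24 h, between -0.0259 and 0.0224 for SEL120-34A at 24 h, and between -0.0327 and 0.0154 between the compounds at 24 h. MRPS18C was 0.0091 for AML874 at 8 h with library totals alone. For SEL120-34A at 8 h it was -0.0114 with the HIF covariate, -0.0743 unstranded and -0.003 by expected counts, and lay between -0.0334 and 0.0333 with a library left out. Unstranded it was also 0.0428 between the compounds at 8 h and 0.0222 for the difference of effects of SEL120-34A. MRPS18A in DMSO with time was 0.0245 with library totals alone, 0.0052 with the HIF covariate and 0.0027 with the filter, and lay between -0.0537 and 0.0293 with a library left out. MRPS18B in DMSO with time was 0.0122 and MRPL47 with SEL120-34A at 8 h 0.0438 with library totals alone. Counting error limits MRPS24, with 35 to 89 gene counts in a library, and MRPL53, with 0 to 3.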

Other observations

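The mitochondrially encoded mRNAs, which this ribosome translates, differed between the compounds. At 24 h 12 of the 13 were higher with AML874 than with SEL120-34A and none was lower, with a median log2 difference of 0.26. Of the 82 nuclear-encoded subunits of the respiratory chain 8 were higher and 3 lower in the same comparison. The effect of AML874 on the 13 mRNAs was higher at 24 h than at 8 h for 10 of them and lower for none, with a median difference of 0.29. For SEL120-34A 4 were higher and none lower.

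Within groups, the library with the highest HIF target mean was also the library with the lowest summed level of the ribosomal protein genes in 4 of 6 groups. These were replicate 1 of AML874 at 24 h, replicate 2 of SEL120-34A at 24 h, replicate 2 of SEL120-34A at 8 h and replicate 3 of DMSO at 8 h. In DMSO at 24 h and in AML874 at 8 h they were different libraries. With 3 libraries in a group this is a description.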
